A study of Arabidopsis thaliana with 6 samples.

Results

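Of the 20423 genes in the deposited RNA-Seq table, 120 are mitochondrion-encoded genes, chosen as every ID that starts with ATMG, and the table also holds 88 plastid-encoded genes and 20215 nuclear IDs. Both groups were roots of wild-type Arabidopsis thaliana Col-0 seedlings, harvested 3 days after germination following 6 h in liquid medium, which for the IAA group held 1 µM indole-3-acetic acid (the main natural auxin) and for the control group held none. The labels name 3 libraries per group, each from about 100 pooled roots, and the RNA was depleted of ribosomal RNA rather than selected for poly(A) tails. The table gives 1 mean per gene and group, in reads normalised by library size factors, so each value below is the authors' mean, with no replicate error and no test between groups. Whole roots were measured, so a change in the number of mitochondria or of cells of a type and a change of RNA per cell cannot be told apart.

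The mitochondrial genome of a plant codes for a small share of the proteins of the organelle: some subunits of respiratory complexes I, III, IV and V, factors that attach haem to cytochrome c, and part of the mitochondrial ribosome. The remaining subunits are nuclear-encoded and imported. Nuclear-encoded RNA polymerases of the phage type transcribe the organelle genome, and nuclear-encoded pentatricopeptide repeat (PPR) proteins take part in editing, splicing and stabilising its transcripts.

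Names for the ATMG IDs were taken from notes of the reference annotation (TAIR10.1), which link nuclear genes to the mitochondrial gene they resemble most. These notes named 52 of the 120 members, and the other 68 are given by ID only. For 17 of the 52, the nuclear sequence also lay on a named gene of the mitochondrial reference, and these 17 form the functional classes: 3 genes of complex I, 1 of complex III, 1 of complex IV, 4 of complex V, 3 of cytochrome c maturation and 5 of the ribosome. No member could be assigned to ribosomal RNA, transfer RNA, the maturase or the translocase from these notes. The classes are partial, since the mitochondrial reference also holds genes such as nad4, nad5, cox1, cox2 and atp4, to which no member was assigned. A value given below for a complex or class of members covers its assigned genes only, and its other genes may be among the members without a symbol. An assigned member may also stand for a part of its gene. The matched copies covered 295 of 978 coding bases of nad1, 571 of 1467 of nad2 and 325 of 1329 of ccmFC in the mitochondrial reference.

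Many of the members have near-identical copies in the nucleus, since chromosome 2 of Col-0 is known to carry an insert of mitochondrial DNA, and reads from identical copies cannot be told apart. In the reference, 184 genes between 3239657 and 3507323 on chromosome 2 had at least 50% of their 60-base stretches (the read length) in the mitochondrial sequence, and 62 of these were measured. Stretches of 60 bases are printed here to show how little separates the copies. The stretch below opens the coding sequence of atp8 (ATMG00480), a membrane subunit of ATP synthase, and was the same in the chromosome 2 copy AT2G07707 (chr2:3386292-3386351, plus strand, exonic) and in the mitochondrial reference.
atp8: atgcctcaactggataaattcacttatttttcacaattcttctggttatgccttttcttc
The next stretch opens the coding sequence of AT2G07671 (chr2:3252054-3252113, minus strand, exonic), the copy of atp9 (ATMG01080), the ring subunit of ATP synthase. It occurred at 2 places in the mitochondrial reference. The copy has 258 coding bases and atp9 has 225 in that reference, so the stretch may begin before the atp9 start given there.
atp9: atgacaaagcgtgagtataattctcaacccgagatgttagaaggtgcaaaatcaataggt
Other copies differ from the mitochondrial reference by 1 base or more. The atp1 copy AT2G07698 was compared over 2334 coding bases. In the mitochondrial reference atp1 has 1524, so the stretch printed below for this copy may lie outside atp1. In the next pairs of stretches the capital marks the base that differs, for atp1 (ATMG01190, copy AT2G07698 at chr2:3361899-3361958, plus strand), rpl2 (ATMG00560, copy AT2G07715 at chr2:3411957-3412016, plus strand) and ATMG00280 (copy AT2G07732 at chr2:3468519-3468578, minus strand).
atp1, mitochondrial reference: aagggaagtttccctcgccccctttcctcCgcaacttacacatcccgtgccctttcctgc
atp1, chromosome 2 copy: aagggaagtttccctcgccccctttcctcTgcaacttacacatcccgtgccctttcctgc
rpl2, mitochondrial reference: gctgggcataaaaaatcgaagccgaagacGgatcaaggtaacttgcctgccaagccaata
rpl2, chromosome 2 copy: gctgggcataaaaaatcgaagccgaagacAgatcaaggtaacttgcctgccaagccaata
ATMG00280, mitochondrial reference: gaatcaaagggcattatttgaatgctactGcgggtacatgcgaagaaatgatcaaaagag
ATMG00280, chromosome 2 copy: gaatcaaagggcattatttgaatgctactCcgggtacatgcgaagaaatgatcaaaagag

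The members took 6.01% of all normalised reads in control and 5.77% after IAA, with summed means of 55226.78 and 50437.60. The lowest means of each group fell on sums of 2 fixed steps (0.5895 and 0.6335 in control, 0.367 and 0.4265 after IAA), which are the worth of 1 read, so the fewest reads that a mean can stand for is known. Summed over IDs, at least 87177 reads lay behind the members' control means and at least 118259 behind their IAA means, of at least 1451105 and 2048425 over all genes. A read counted at more than 1 ID, if there were any, would enter these totals, and the intervals taken from them, at each ID. The exact (Clopper-Pearson) 95% interval of the share was 5.97% to 6.05% in control and 5.74% to 5.80% after IAA. These intervals, like all intervals here, cover counting error only and compare the pooled libraries, not the conditions. With the 62 copies on chromosome 2 added, the share was 11.6% in control and 10.7% after IAA, a sum that may count a read more than 1 time, since some members and copies have the same means.

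The distribution within the organelle was uneven. The 2 members with the highest means, atp9 and atp1, held 29.3% of the members' reads in control and 30.1% after IAA, and the 10 highest held 58.0% and 57.2%. A mean over both groups of at least 1000 was reached by 17 members, at least 100 by 48 and at least 10 by 74. The other 46 members had means under 10, and among them 6 were listed at 0 in control and 5 at 0 after IAA.

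Between control and IAA the mitochondrial genes moved little. In the 74 members whose mean reached 10, the log2 ratio of IAA to control had a median of −0.10, with quartiles of −0.22 and 0.13 and a range of −0.77 to 2.29. For 55 of the 74 the IAA mean lay between 0.8 and 1.25 times the control mean. The plastid genes gave a median of 0.05 (85 genes, quartiles −0.06 and 0.28), and the nuclear IDs a median of −0.01 (10980 IDs) with far wider quartiles of −0.51 and 0.55. Past 2-fold, 2 of the 74 members were higher after IAA and 0 were lower, against 13.0% higher and 11.1% lower over all 11139 genes with such a mean. Where both means had to reach 10, 0 of 70 members were past 2-fold in either direction, against 9.21% higher and 7.77% lower of 9390 genes. The plastid genes had 0 in either direction. The members and the other genes were not matched for level, so the part of read depth in these differences of spread and of share was not tested.

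**Figure D1:**
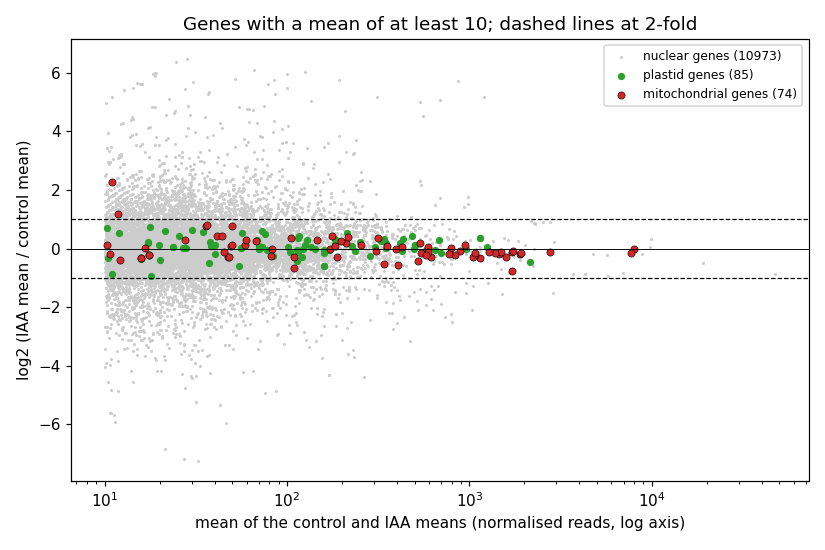
Each point is a gene with a mean of at least 10 in normalised reads (x axis, log scale), and the y axis gives the log2 ratio of its IAA mean to its control mean, for nuclear (grey), plastid (green) and mitochondrial genes (red), with dashed lines at 2-fold. Of the 74 mitochondrial genes 2 lie above the upper line, both at the left edge, and 0 lie under the lower line, and the 7 nuclear IDs listed at 0 in a group are not drawn.

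The range of the ratios was narrower at higher means. The 48 members with a mean of at least 100 had log2 ratios from −0.77 to 0.42 (median −0.12). The 26 members between 10 and 100 had a median of 0.10 and ranged from −0.40 to 2.29. All 17 members with a mean of at least 1000 had a lower mean after IAA (log2 ratio from −0.77 to −0.02, median −0.16). When the groups were scaled by their sum over nuclear genes, 2 of them, atp9 and cox3, were higher. That sum included the 62 chromosome 2 copies and had a log2 ratio of −0.073. Without the nuclear genes that carry mitochondrial sequence its log2 ratio was −0.06, beside −0.068 for cox3, so cox3 would stay lower and atp9 would not. Across the 74 members the rank correlation of log2 ratio and mean was −0.28, a description over genes that share the same libraries.

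Read by the counting interval of each ratio, 13 of the 74 members were above 1 and 25 were below 1, and 36 intervals held 1. Over all genes with a mean of at least 10, 24.0% had an interval above 1 and 23.5% below 1, beside 17.6% and 33.8% of the members. An interval narrows with the number of reads, and 48 of the 74 members had a mean of at least 100. No share over genes of a similar mean was computed, so these shares are not compared at a like depth. Since these intervals leave out the spread between libraries, a ratio outside them is a difference between the pooled reads and not a response shown in replicates.

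Complex V, the ATP synthase, supplied the most abundant members. The means of atp9 were 8030.40 in control and 7897.91 after IAA, a ratio of 0.984 (95% counting interval 0.961 to 1.006). The means of atp1, which codes for the alpha subunit of the catalytic head, were 8128.08 and 7283.38 (ratio 0.896, 0.876 to 0.917). For atp6 (ATMG00410), the membrane subunit that lies against the ring, they were 2020.44 and 1779.84 (ratio 0.881, 0.841 to 0.923). All 4 genes assigned to this complex had a lower mean after IAA, except that atp9 was higher when the groups were scaled by their sum over nuclear genes. The lowest ratio was that of atp8, with means of 1142.09 and 947.08 (0.829, 0.779 to 0.883). Summed, complex V had a log2 ratio of −0.11, and its median over genes was −0.17. Scaled by the sum over nuclear genes, these were −0.04 and −0.10.

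In the electron transport chain, cob (ATMG00220), the cytochrome b of complex III, had means of 1751.61 in control and 1426.77 after IAA (ratio 0.815, 0.774 to 0.857). It was the lowest ratio among the 17 genes of the functional classes. For cox3 (ATMG00730), a core subunit of complex IV, the means were 1766.07 and 1684.98 (ratio 0.954, 0.909 to 1.002). The 3 genes assigned to complex I, which code for membrane subunits of the NADH dehydrogenase, went in different directions. The notes name the nad2 and nad1 members as NADH dehydrogenase 2B and 1A, so each value may cover only a part of its gene. For nad2 (ATMG01320) the means were 618.99 and 533.65 (ratio 0.862, 0.792 to 0.938). The means of nad1 (ATMG01275) were 422.00 and 434.58 (ratio 1.03, 0.933 to 1.137). At a lower level, nad3 (ATMG00990) had means of 92.58 and 118.34 (ratio 1.278, 1.042 to 1.573), the highest ratio of the 17. The summed log2 ratio of complex I was −0.06 and its median 0.04.

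Of the 5 ribosomal protein genes, 4 had a higher mean after IAA, also when scaled by the sum over nuclear genes. For rpl2, the means were 905.44 in control and 995.77 after IAA (ratio 1.10, 1.029 to 1.175), and for rps4 (ATMG00290) they were 503.34 and 573.56 (1.14, 1.043 to 1.246). The intervals of rps12 (ATMG00980, 195.32 and 223.68, ratio 1.145), rpl5 (ATMG00210, 785.04 and 793.08, ratio 1.01) and rps7 (ATMG01270, 87.83 and 74.52, ratio 0.848) held 1. The class had a summed log2 ratio of 0.10 and a median of 0.14.

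The 3 genes of cytochrome c maturation all had intervals that held 1. The means of ccmFC (ATMG00180) were 316.41 and 295.72 (ratio 0.935), those of ccmFN2 (ATMG00960) were 120.05 and 99.52 (0.829), and those of ccmC (ATMG00900) were 82.79 and 82.22 (0.993). Of all 17 genes in the functional classes, 16 had a ratio between 0.8 and 1.25, the exception being nad3, and 0 were past 2-fold.

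**Figure D2:**
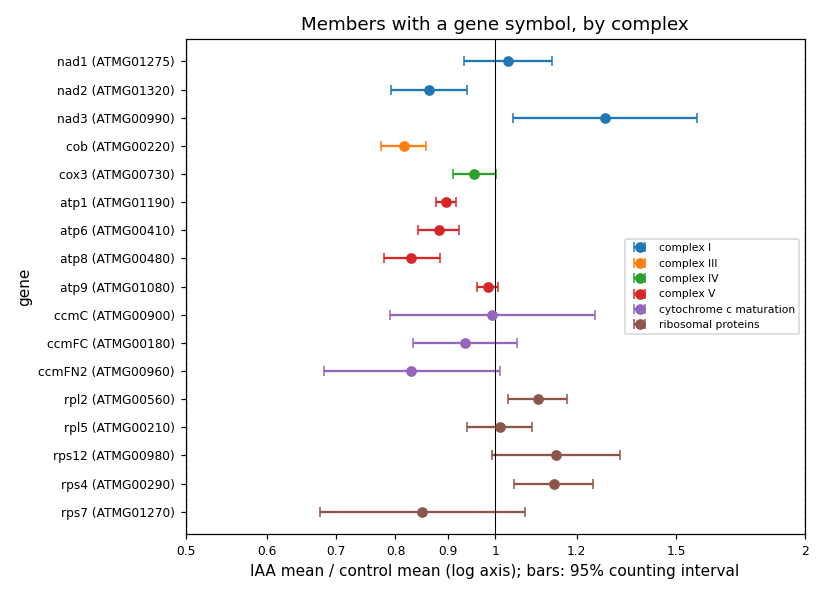
Ratio of the IAA mean to the control mean (x axis, log scale) for the 17 members with a gene symbol, coloured by complex, with bars for the 95% counting interval. The intervals of atp1, atp6, atp8, cob and nad2 lie below 1, those of rpl2, rps4 and nad3 above 1, and the edges of the plot are at 2-fold.

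Levels differed between these genes far more than between the groups. Per kilobase of coding sequence in the mitochondrial reference, the control level of atp9 was 35691 normalised reads, that of atp1 5333, that of atp8 2394 and that of cox3 2213. Next came atp6 at 1745, cob at 1482 and rpl5 at 1407, then rps12 at 517 and rps4 at 462. The lowest of the 13 genes with an undivided coding sequence were nad3 at 259, rps7 at 197, ccmFN2 at 196 and ccmC at 107. The order is a description, since the counted length of each ATMG gene is not given in the sources used here and no spread over libraries was available.

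Beyond the functional classes, 8 members have a descriptive name in the notes, 27 are named without a function and 68 are not named. The descriptive names are by likeness to a protein or kind of protein, except for ATMG01010, which is called only an unknown conserved protein. Among these 103, the 5 with the highest means were ATMG01360, ATMG00510, ATMG01060, ATMG00040 and ATMG00513, and all 5 were lower after IAA. The means of ATMG01360 were 2862.12 and 2662.29 (ratio 0.93), those of ATMG00510 2011.19 and 1818.13 (0.904), those of ATMG00040 1788.05 and 1632.52 (0.913) and those of ATMG00513 1543.83 and 1422.54 (0.921).

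All 8 members with a descriptive name had a mean of at least 10. Of these, 3 resemble respiratory subunits without lying on the named gene itself. ATMG01280, like a subunit II of cytochrome c oxidase, had means of 612.33 and 566.28 (ratio 0.925, 0.851 to 1.006), and ATMG00590, like cytochrome b, had 178.51 and 188.62 (1.06, 0.908 to 1.23). ATMG01090, like subunit 9 of ATP synthase, had 592.39 and 446.46 (0.754, 0.689 to 0.824), an interval apart from that of atp9 itself.

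The other named reading frames included 2 that resemble plastid genes. ATMG00280, like the catalytic domain of the large chain of Rubisco, had means of 277.16 in control and 354.82 after IAA (ratio 1.28, 1.14 to 1.44), and ATMG00370, like the plastid protein Ycf1, had 26.42 and 45.29 (1.71, 1.19 to 2.52). Both intervals lay above 1. ATMG00610, called a putative membrane lipoprotein, had 52.21 and 42.80, and ATMG01010, a conserved protein of unknown role, had 52.84 and 43.29, with intervals that held 1 for both. The last of the 8, ATMG01110, is given further on.

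The departure of ATMG01060 was the widest in the downward direction. Its means were 2156.35 in control and 1265.10 after IAA, a ratio of 0.587 (interval 0.558 to 0.616) and the lowest of the 74. Next came ATMG00500, which the notes call an unknown protein, with means of 133.10 and 84.15 (0.632, 0.518 to 0.772), and ATMG00516 with 481.41 and 327.13 (0.68, 0.614 to 0.752). None of these reached 2-fold.

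In the upward direction the widest ratios belonged to members with few reads. ATMG01110, named by likeness to the RNA-dependent RNA polymerase of mitoviruses (RNA viruses of mitochondria), had means of 3.72 in control and 18.15 after IAA, a ratio of 4.88 with an interval from 1.93 to 15.8, resting on at least 5 and 42 reads. ATMG00450, which the notes mention only as the parent of a pseudogene, had means of 7.25 and 16.44 (ratio 2.27, 1.14 to 4.92). These were the 2 members past 2-fold, and the control mean of both was under 10. The third by ratio, ATMG01000, had means of 26.37 and 46.48 (ratio 1.76, 1.22 to 2.59).

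**Figure D3:**
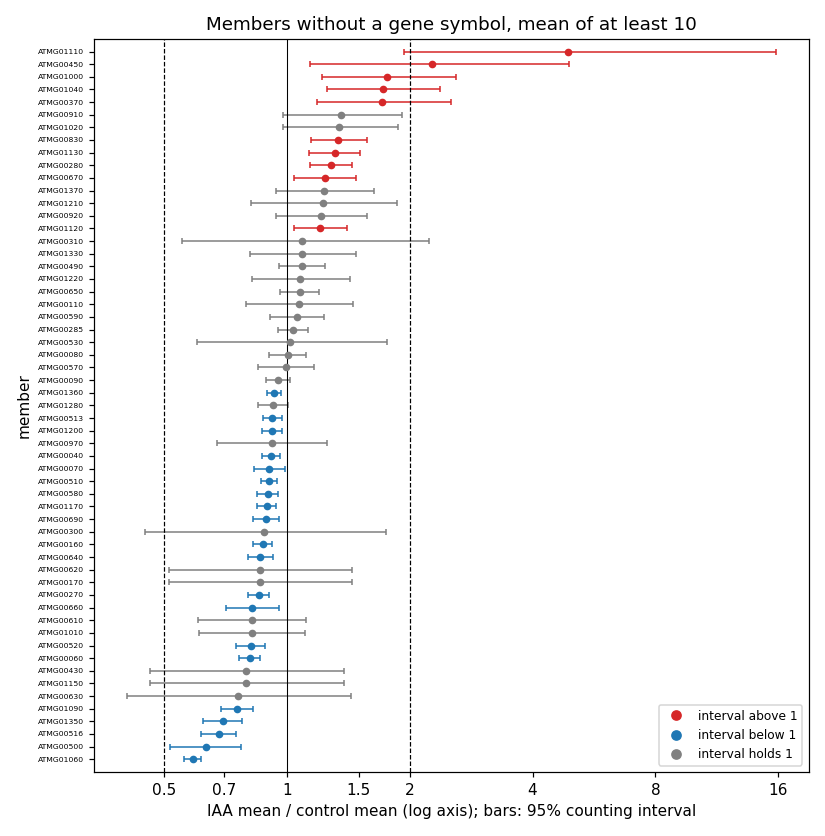
Ratio of the IAA mean to the control mean (x axis, log scale) with its 95% counting interval for the 57 members of a mean of at least 10 that have no gene symbol, sorted by ratio, with dashed lines at 2-fold. The points run from 0.587 (ATMG01060) to 4.88 (ATMG01110), and the widest bars belong to the members with the fewest reads.

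The means of members and of their nuclear copies were then set side by side, as a check on what an ATMG value measures. The notes paired 44 members with a measured nuclear copy in 45 pairs, of which 26 had no mismatch in the compared coding bases and 12 had 1. In 10 pairs the member and the copy had exactly the same mean in both groups, among them 5 of the 35 pairs in which both had a mean of at least 10. The atp8 gene and AT2G07707 shared 1142.09 in control and 947.08 after IAA, rps12 and AT2G07675 shared 195.32 and 223.68, and ATMG00590 and AT2G07718 shared 178.51 and 188.62. The same held for sequences repeated within the organelle: ATMG00170 and ATMG00620 both had 18.90 and 16.22, and so did AT2G07722. Likewise ATMG00430, ATMG01150 and AT2G07701 all had 17.63 and 14.01.

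Among all genes with a mean of at least 100, 10 sets of IDs had the same pair of means. Of these, 3 held a member and its chromosome 2 copy, 3 held plastid IDs only and 4 held nuclear IDs only. The methods of the study describe counting of uniquely mapped reads. Whether a read with several identical places was counted at each of them was not tested.

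For the other 30 pairs the level depended on the pair. Over the 35 pairs the control mean of the copy was between 0.392 and 10.4 times that of the member, with a median of 1.15, and was above it in 22 and below it in 8. These means are not corrected for length. The gene of a copy can be longer than the bases compared, as for AT2G07708 (1310 bases, 420 compared) and AT2G07671 (776 and 258). The ratios are thus not levels of the same sequence. The atp9 copy AT2G07671 had means of 22275.69 and 15773.05, a log2 ratio of −0.50 against −0.02 for ATMG01080. The copy of ATMG00500, AT2G07708, had 1389.53 and 1319.74, a log2 ratio of −0.07 against −0.66. The log2 ratios of member and copy differed by at most 0.1 in 25 of the 35 pairs and lay on the same side of 0 in 32. Both values of a pair can draw on the same reads, so this likeness is not a second measurement.

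The copy of ATMG01110, AT2G07749, had means of 14.50 and 34.66. The atp1 copy AT2G07698 had 9356.41 and 8297.37, a log2 ratio of −0.17 beside −0.16 for ATMG01190. This copy differs from the mitochondrial reference by 1 base in 2334 compared coding bases. That base is the one printed above and may lie outside atp1. For rpl2 and AT2G07715, which had 657.29 and 722.99, both log2 ratios were 0.14.

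**Figure D4:**
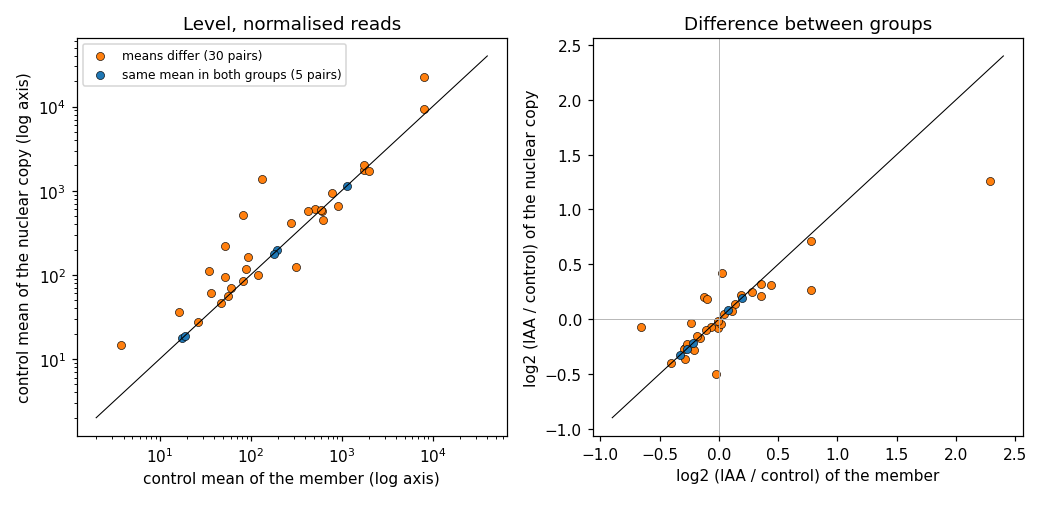
Left, control mean in normalised reads of each member (x axis) and of its nuclear copy (y axis), both on log scales, for the 35 pairs with means of at least 10, and right, the log2 ratio of IAA to control for the same pairs, with the line of equality in both. The 5 blue pairs have the same mean in both groups and sit on the line, while on the left 22 pairs lie above it.

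Nuclear genes of respiration and of organelle gene expression were described by lists from product names, without the chromosome 2 copies. Such lists need not hold every gene of a complex or of the ribosome. Over all genes with a mean of at least 10, 50.6% had a lower mean after IAA. Of 26 nuclear complex I genes with a mean of at least 10, 21 were lower (median log2 ratio −0.28). Past 2-fold lower were 2 of the 26 (7.69%), beside 11.1% of all genes with such a mean and 7.77% of those with both means of at least 10. For complex II, whose subunits are nuclear-encoded in Arabidopsis, 10 of 10 were lower (median −0.33) and 0 past 2-fold. Complex III had 5 of 7 lower (median −0.09), while its summed means had a log2 ratio of 0.00, and 2 of its genes had intervals above 1 and 1 below. Complex IV had 5 of 8 lower (median −0.20), and 1 of the 8 was past 2-fold lower, with an IAA mean under 10. Complex V had 14 of 16 lower (median −0.25). In complexes III and V, 0 were past 2-fold. The list of nuclear genes for mitochondrial ribosomal proteins held 8 by product name, and the 4 of them with such a mean lay between −0.07 and 0.18. Over all genes tested the median was −0.01, with quartiles of −0.50 and 0.54, and the median of each list lay between these. Scaled by the sum over nuclear genes, the 5 complexes kept medians under 0, from −0.25 to −0.02.

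The lists for organelle gene expression had medians above 0. The PPR list was taken from product names alone, whichever organelle a protein is sent to, so it is not a list of partners of the mitochondrial genes. Of 60 PPR genes with a mean of at least 10, 18 were past 2-fold higher after IAA and 2 past 2-fold lower (beside the 13.0% and 11.1% of all genes), and their median was 0.45. In 6 of the 18 the control mean was under 10, so they reached this minimum only through the IAA group. Among the 45 PPR genes with both means of at least 10, 12 were past 2-fold higher and 2 lower, beside the 9.21% and 7.77% of all such genes. The RNA polymerase AT1G68990, known as the enzyme of mitochondria, had means of 12.15 in control and 49.07 after IAA (ratio 4.04). AT5G15700, the polymerase sent to mitochondria and plastids, had 9.65 and 22.66 (ratio 2.35), with a control mean under 10. The plastid enzyme AT2G24120 had 20.94 and 19.49 (ratio 0.931).

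Among the electron carriers and bypass enzymes, the alternative oxidase AOX1A (AT3G22370), which takes electrons from ubiquinol past complexes III and IV, had means of 28.64 and 13.23 (ratio 0.462). The cytochrome c genes had means of 136.81 and 157.57 (CYTC-1, AT1G22840) and of 16.54 and 9.81 (CYTC-2, AT4G10040).

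The tissue and the treatment were checked with markers. The root genes PIN2 (68.79 and 66.29), an auxin exporter, and SCR (30.95 and 37.56), a factor of the endodermis, were measured in both groups, and the auxin-induced genes GH3.3 (32.49 and 1698.18) and IAA19 (3.13 and 196.56) were far higher after IAA. Other root markers had different directions. GL2, a factor of the root epidermis, had 8.52 and 8.18, and PLT1, a factor of the stem cell niche, had 2.99 and 4.15, while the endodermal gene CASP1 had 59.82 and 12.32 and the root hair gene EXPA7 38.47 and 7.86. Of the shoot genes, RBCS1A had 16.00 and 1.28, LHCB1.2 24.97 and 3.35 and LHCB1.3 32.36 and 3.77, so 3 of 3 were lower after IAA. The part of such shifts in the members' ratios was not tested.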

How the data were processed

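Roots of Col-0 seedlings were compared after 6 h with or without 1 µM IAA, with 3 libraries per group in the labels. According to the paper, the authors mapped 60-base reads to TAIR10 with SHRiMP, counted uniquely mapped reads with htseq-count (HTSeq) and compared groups with DESeq. The values the authors deposited are a signal: for each group, the mean of the read counts after division by size factors. The table also holds the authors' own fold changes, log2 fold changes and p-values with their adjustment, none of which were used. It holds 0 columns of values per library, so there is no depth per library and no test.

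The ratio of the IAA mean to the control mean was computed for genes with a mean over both groups of at least 10. A gene was called past 2-fold at a ratio of at least 2 or at most 0.5. The worth of 1 read was found from the lowest means: all 2840 control means up to 2.36 and all 2171 IAA means up to 1.48 lay within 0.006 of a sum of 2 steps. The number of libraries behind a mean could not be determined from this. Reads were taken as the mean over the larger step, the fewest possible, and exact conditional binomial (Clopper-Pearson) 95% intervals of the ratio were computed from them. The steps and intervals were tested on simulated data.

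ATMG IDs were named through notes of nuclear genes in TAIR10.1, whose mitochondrial sequence is another assembly than that of TAIR10 and carries no ATMG IDs. Nuclear copies had at least 50% of their 60-base stretches in that sequence. Coding bases were matched with blastn 2.17.0. Intervals were computed with scipy 1.17.1, tables with pandas 2.3.3 and numpy 2.4.6 under Python 3.11.15, and plots with matplotlib 3.10.9.

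Members described in the text were all those of the functional classes, the 5 others with the highest means, the 3 with the largest and the 3 with the smallest log2 ratio, and those past 2-fold. The 8 members with a descriptive name, some copies and nuclear genes were added after their values were seen. The members and lists were chosen with earlier results of these data known. Alternatives covered the fold threshold, the minimum mean, 1 added to each mean, 2 other scalings, class sums without the highest member and, added after seeing the data, members with shared means counted once, members without measured copies, members with a mean of at least 100, both means of at least 10 and the copies added to the share.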

Additional observations from a re-analysis of the deposited data

How the results depend on the processing

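With a threshold of 1.5-fold, 5 members were higher and 2 lower after IAA, with no minimum mean 18 and 8, with a minimum mean of 50, 0 and 0, and with both means of at least 10 (chosen after seeing the data) 0 and 0. Of these settings, a share over all genes was computed only for both means of at least 10 (9.21% higher and 7.77% lower). The other counts have no background beside them. Scaling by the sum over nuclear genes, whose log2 ratio was −0.073, moved complex IV to 0.005 (median and sum), complex V to a median of −0.098 and a sum of −0.037, and the ribosomal proteins to a sum of 0.176. It also turned the sign of cox3, ccmC and atp9, to 0.005, 0.063 and 0.049, none of which had an interval that left 1 out. The nuclear sum included the chromosome 2 copies. Without the nuclear genes that carry mitochondrial sequence its log2 ratio was −0.06, beside −0.068 for cox3, the only complex IV gene assigned, so the turn of cox3 depended on these genes. Without its highest member, the summed log2 ratio was 0.104 for complex I (without nad2) and −0.174 for complex V (without atp9). Adding the chromosome 2 copies, which may count reads again, an alternative chosen after seeing the data, gave shares of 11.643% and 10.658%. The median log2 ratio over the members, −0.101 as reported, turned to 0.004 with no minimum mean, was −0.028 when scaled by the sum over nuclear genes, and lay between −0.119 and −0.086 under the other alternatives run. The alternatives without ribosomal and transfer RNA genes and with uniquely mapping members only were not run, since no member is annotated as such in the sources used and the ATMG sequences of TAIR10 were not analysed here. No paired analysis was possible because the table holds 1 mean per group, and for the same reason no replicate could be left out. Low means limit the statements on the 46 members under 10.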
